A study of Mus musculus with 19 samples.

Results

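The lipid droplet coat and lipolysis genes of hepatocytes were represented by 10 genes, taken by their symbols from the table of gene counts in mouse liver. They were Plin2, Plin3, Plin5 and Cideb, which encode proteins of the droplet surface, Hsd17b13 and Hsd17b11, which encode droplet-bound short-chain dehydrogenases, Pnpla2 and Abhd5, which encode the main triglyceride lipase of the droplet and its co-activator, and G0s2 and Hilpda, which encode inhibitors of that lipase. These were 10 of 55836 genes listed and 10 of the 13597 genes with enough counts to be tested.

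Livers of 19 male wild type C57BL/6 mice were analysed, with 1 library per mouse. The mice were 8 weeks old at the start and were fed for 8 weeks either a control diet (CD, called chow in the sample labels) or a diet high in fat, fructose and cholesterol used to induce metabolic dysfunction-associated steatohepatitis (MASH diet, MD). On each diet they received by daily oral gavage either polyethylene microplastics (PE, 2 mg per mouse per day) or only the vehicle (Veh), a dilute solution of the detergent Tween in water that the PE mice received as well. The CD + Veh group held 4 mice, and CD + PE, MD + Veh and MD + PE held 5 each.

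Hepatocytes store triglyceride and cholesteryl ester in lipid droplets, which are covered by a phospholipid monolayer and a coat of proteins. Perilipins bind the surface and limit the access of lipases, and CIDE proteins promote droplet fusion and, in the case of CIDEB, the loading of lipid onto very low density lipoprotein. Lipolysis starts when ATGL, the product of Pnpla2, is activated by CGI-58, the product of Abhd5, and is held back by the products of G0s2 and Hilpda. Several of these genes, Plin2 and Plin5 among them, are known targets of the fatty acid-sensing receptor PPARα.

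Depth ranged from 10398820 to 15456729 counts per library and was lower in every PE library than in every vehicle library on the same diet. Vehicle libraries also carried lower library numbers than PE libraries, so PE and the order of the libraries cannot be told apart. The hepatocyte markers Alb, Ttr, Apoa1, Hnf4a and Cyp2e1 summed to between 45760 and 88385 CPM, the count scaled to the normalised size of the library, in all 19 libraries. Of 6 adipocyte markers, only Lipe had enough counts to be tested. Adipoq was at most 0.557 CPM except in MD + Veh replicate 1, where it was 4.18 CPM, and Lep was at 0 in every CD + Veh and MD + PE library. 3 libraries stood apart by skeletal muscle or macrophage markers that summed to more than 300 CPM. Skeletal muscle genes summed to 2720 CPM in MD + Veh replicate 1 and to 352 CPM in CD + PE replicate 1, and macrophage genes summed to 415 CPM in CD + PE replicate 2. Where leaving out these 3 libraries ended a call named below, the value without them is given. Stellate cell markers were not part of the limit of 300 CPM. They summed to 441 CPM in MD + PE replicate 4, which was not left out, and to 348 CPM in MD + Veh replicate 1.

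To show what lies upstream of a lipolysis, a coat and a dehydrogenase gene that were each called in at least 1 comparison, the promoter windows of Abhd5, Plin2 and Hsd17b11 are printed here, from 250 bases before to 50 after the annotated start in RefSeq on GRCm38.p6, 5′ to 3′ on the strand of the gene. Capitals mark matches on either strand to the nuclear receptor motif AGGTCA, the E-box CACGTG and the sterol element core TCACNCCA.
Abhd5, chr9:122351366-122351665, plus strand: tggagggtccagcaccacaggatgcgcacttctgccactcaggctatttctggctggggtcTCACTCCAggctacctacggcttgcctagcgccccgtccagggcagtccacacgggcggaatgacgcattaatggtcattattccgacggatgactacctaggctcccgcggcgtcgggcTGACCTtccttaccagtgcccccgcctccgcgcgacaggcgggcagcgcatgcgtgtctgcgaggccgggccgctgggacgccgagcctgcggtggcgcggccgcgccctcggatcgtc
Plin2, chr4:86670010-86670309, minus strand: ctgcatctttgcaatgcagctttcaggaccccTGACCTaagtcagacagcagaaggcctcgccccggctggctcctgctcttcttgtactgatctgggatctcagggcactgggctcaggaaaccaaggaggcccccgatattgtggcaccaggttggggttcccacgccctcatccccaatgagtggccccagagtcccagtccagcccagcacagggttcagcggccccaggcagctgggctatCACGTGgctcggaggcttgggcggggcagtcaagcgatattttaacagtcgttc
Hsd17b11, chr5:104021747-104022046, minus strand: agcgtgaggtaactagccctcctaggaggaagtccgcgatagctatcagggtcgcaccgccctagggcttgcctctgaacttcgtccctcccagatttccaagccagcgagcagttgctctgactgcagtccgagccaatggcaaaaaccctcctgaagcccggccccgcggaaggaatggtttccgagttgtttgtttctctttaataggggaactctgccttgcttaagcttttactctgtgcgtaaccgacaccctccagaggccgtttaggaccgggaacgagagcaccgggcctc
The Abhd5 window held 1 AGGTCA match and 1 TCACNCCA match, the Plin2 window held 1 AGGTCA match and 1 CACGTG match, and the Hsd17b11 window held none of these motifs. The 10 genes had 12 such windows. AGGTCA was found for 4 of the 10 genes (Plin2, Hsd17b13, Abhd5 and Plin5) and in 16.3% of all 32851 promoter windows. TCACNCCA was found for Abhd5 and Plin3 and in 4.36% of all windows, and CACGTG for Plin2 and in 7.15% of all windows. DR1, a direct repeat of AGGTCA with 1 free base between the copies, which is the form that PPARα binds with its partner, was in none of the 12 windows and in 0.0396% of all windows. The shorter ACGTG, the core of the hypoxia response element and part of CACGTG, was found for Plin2 and Hilpda and in 19.6% of all windows. A match is a string of letters and was not tested as a binding site.

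Levels between genes were compared per kilobase of the canonical transcript. In CD + Veh livers (n = 4, mean ± SD) Hsd17b13 was the highest at 367 ± 51.9 CPM per kb, followed by Cideb at 161 ± 12.5 CPM per kb and Plin2 at 152 ± 32.7 CPM per kb. Cideb and Plin2 differed by less than their spread. Hsd17b11 came next at 64.0 ± 7.88 CPM per kb, then G0s2 at 41.6 ± 13.2 CPM per kb and Pnpla2 at 29.98 ± 6.13 CPM per kb, with overlapping spreads for G0s2 and Pnpla2. The lipase co-activator Abhd5 was at 9.77 ± 1.39 CPM per kb, below its lipase, and Plin3 and Plin5 were at 14.3 ± 1.92 and 11.5 ± 2.07 CPM per kb. Hilpda was the lowest at 0.456 ± 0.119 CPM per kb, which stands for 6 to 37 counts in a library over all groups. The scale depends on the transcript, since annotated transcripts of G0s2 range from 866 to 3243 bases.

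**Figure D1:**
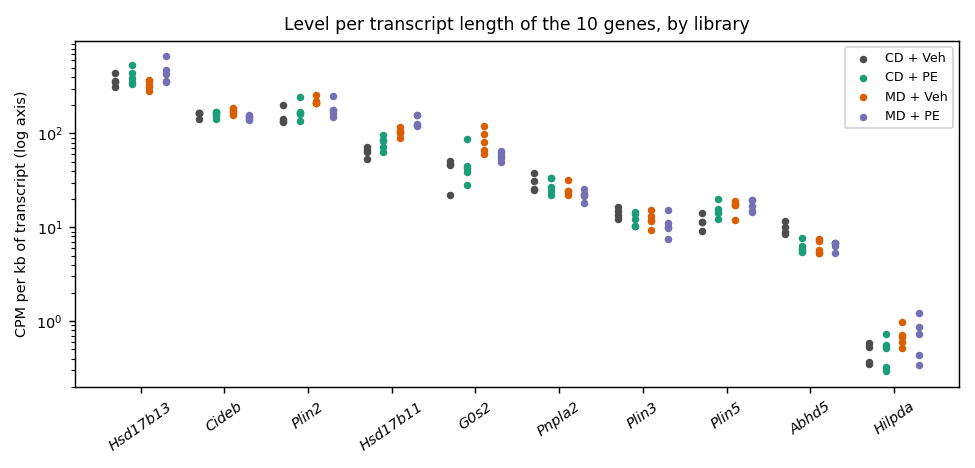
Level of each of the 10 genes in every library, in CPM per kilobase of canonical transcript on a log axis, coloured by group (CD + Veh n = 4, the others n = 5). Hsd17b13, Cideb and Plin2 form the top of the range and Hilpda lies below 2 CPM per kb in all 19 libraries.

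In GRCm39, Abhd5 (ENSMUSG00000032540.18) lies at chr9:122180621-122222936 and shares 17995 bases with the lncRNA gene A730085K08Rik on the opposite strand. Hsd17b11 (ENSMUSG00000029311.18) lies at chr5:104137628-104169902, Plin2 (ENSMUSG00000028494.14) at chr4:86565912-86588459 and Plin5 (ENSMUSG00000011305.13) at chr17:56418446-56424610. G0s2 (ENSMUSG00000009633.5) lies at chr1:192949563-192956177, Pnpla2 (ENSMUSG00000025509.17) at chr7:141034404-141040656, and Cideb (ENSMUSG00000022219.12) at chr14:55991507-55996099, where it shares 3092 bases with Nop9 on the opposite strand. On the same strand, Hsd17b13 shares 5931 bases with the lncRNA gene Gm71711 and Plin3 shares 452 bases with the lncRNA gene Gm65640. Reads of stranded libraries were assigned by transcript sequence, and the share that an overlapping partner could give was not tested.

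The first question was how PE changed these genes in mice on the control diet. Of the 10 genes only Abhd5, the co-activator of the lipase ATGL, passed the test, and it fell. Abhd5 was at 37.3, 28.8, 27.2 and 32.1 CPM in the 4 CD + Veh livers and at 18.9, 24.5, 17.8, 20.3 and 17.6 CPM in the 5 CD + PE livers. Every PE liver was below every vehicle liver. The log2 fold change was −0.66 with a standard error of 0.12, a level 1.58-fold lower with PE (edgeR quasi-likelihood test, Benjamini-Hochberg adjusted p = 0.00591). A gene was called when its adjusted p was below 0.05 and its absolute log2 fold change was at least 0.38, and 1 of the 10 genes met this in CD + PE against CD + Veh. Of all genes tested, 2.92% were called, 1.22% higher and 1.7% lower. Groups that did not overlap were found in the lower direction for 1 of the 10 genes and for 4.35% of all genes, and in the higher direction for none of the 10 and for 3.49% of all genes.

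The fall of Abhd5 with PE on the control diet kept its direction and its call when any 1 of the 19 libraries was left out, with log2 fold changes between −0.75 and −0.55. It was −0.75 without the 3 libraries rich in muscle or macrophage genes (adjusted p = 0.00796). A score of clock genes, the mean log2 CPM of Bmal1, Clock and Npas2 minus that of Dbp, Per2, Per3, Nr1d1, Tef and Ciart, was between −4.88 and −3.66 in CD + Veh livers and between −3.21 and 0.85 in CD + PE livers, without overlap. With this score as a covariate, the Abhd5 log2 fold change was −0.69 (adjusted p = 0.0369). In bulk RNA, fewer cells of a type and less RNA per cell cannot be told apart.

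**Figure D2:**
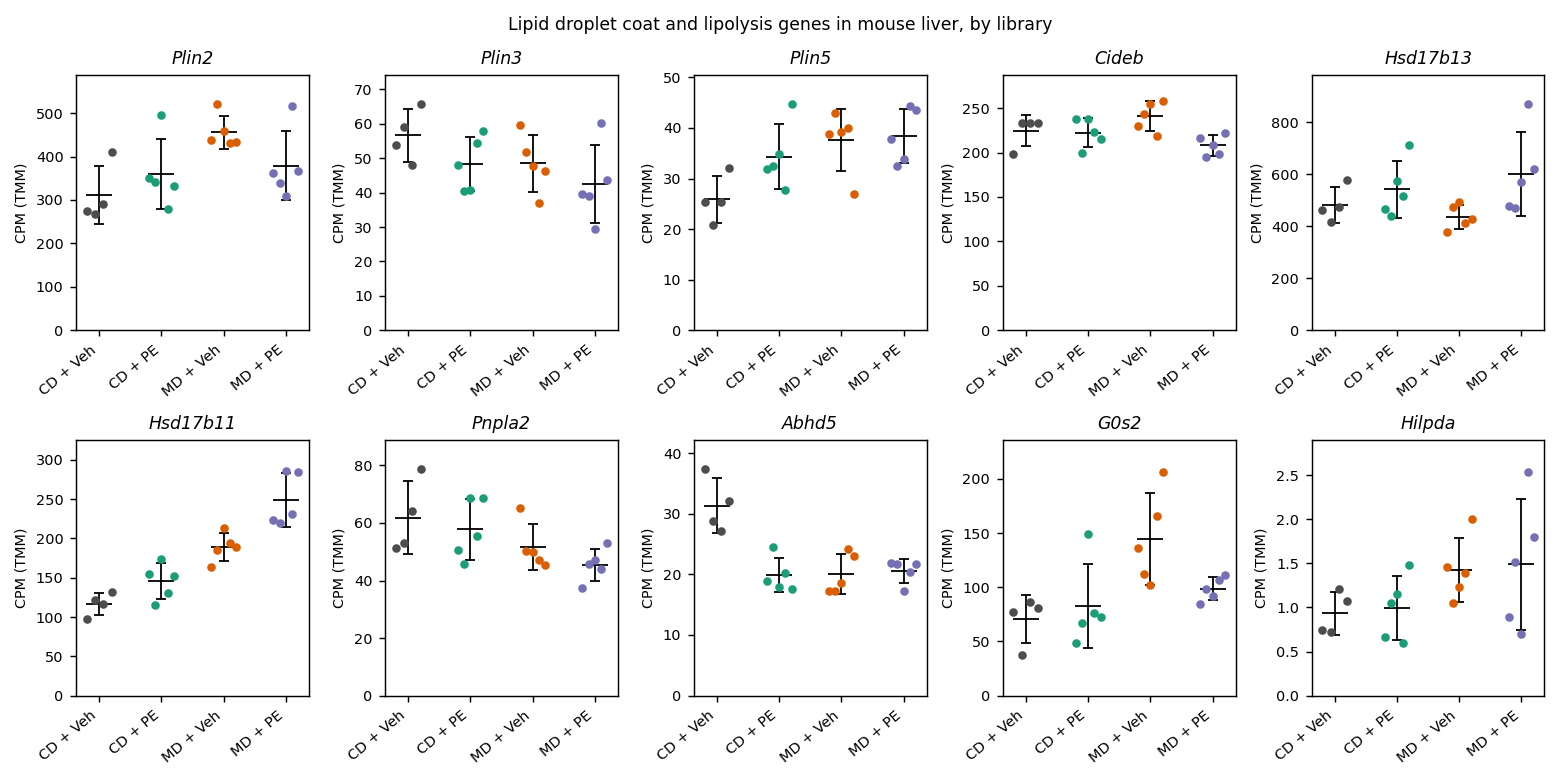
CPM of the 10 genes (TMM-normalised, linear axes from 0) in every liver, with points for libraries and black lines for the mean ± SD (CD + Veh n = 4, the other groups n = 5). The CD + Veh livers stand above all others for Abhd5, and Hsd17b11 is higher in MD + PE than in any other group.

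Plin5, a perilipin of oxidative tissues that tethers droplets to mitochondria, was not called with PE on the control diet. It was at 25.4, 20.8, 25.4 and 32.1 CPM in CD + Veh livers and at 31.8, 32.5, 34.9, 27.7 and 44.8 CPM in CD + PE livers. The groups overlapped through CD + Veh replicate 4, and the log2 fold change of Plin5 was 0.41 ± 0.15 (SE, adjusted p = 0.155). Hsd17b11 had a log2 fold change of 0.32 ± 0.12 (adjusted p = 0.161), with levels of 97.3 to 131 CPM in CD + Veh and 115 to 174 CPM in CD + PE. Plin2 and G0s2 had log2 fold changes of 0.21 (adjusted p = 0.567) and 0.23 (adjusted p = 0.746), and Pnpla2 had −0.10 (adjusted p = 0.804). For Pnpla2 the 95% interval of the log2 fold change was −0.40 to 0.21, for Cideb −0.16 to 0.14 and for Hilpda −0.70 to 0.85. The interval was narrow for Cideb and wide for Hilpda. The median log2 fold change was 0.12 over the 10 genes and 0.01 over all genes tested.

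In mice on the MASH diet, none of the 10 genes passed the edgeR test for PE, where 1.08% of all genes were called, 0.147% higher and 0.934% lower. At an unadjusted p below 0.05, 4 of the 10 genes (Cideb, Hsd17b13, Hsd17b11 and G0s2) and 15.7% of all genes passed, and DESeq2 called 1 of the 10, Hsd17b11. Hsd17b11 was at 164, 186, 214, 195 and 189 CPM in MD + Veh livers and at 223, 219, 286, 231 and 285 CPM in MD + PE livers. All 5 PE livers were above all 5 vehicle livers, which held in the higher direction for 1.08% of all genes. The log2 fold change of Hsd17b11 was 0.39 ± 0.11 (SE, adjusted p = 0.0814 in edgeR), and DESeq2 gave 0.41 with an adjusted p of 0.0221.

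Hsd17b13, which is enriched in hepatocytes, was at 377, 474, 493, 413 and 428 CPM in MD + Veh livers and at 477, 469.9, 571, 870.3 and 621 CPM in MD + PE livers. The groups overlapped, and the log2 fold change was 0.46 ± 0.16 (adjusted p = 0.147). Without MD + PE replicate 4, the liver with the highest level, it was 0.30 (adjusted p = 0.315). G0s2 ran the other way, at 136, 112, 102, 166 and 206 CPM in MD + Veh and 84.6, 98.4, 91.9, 106 and 111 CPM in MD + PE, with a log2 fold change of −0.55 ± 0.26 (adjusted p = 0.312). The MD + PE livers at 84.6, 91.9 and 98.4 CPM of G0s2 lay below all MD + Veh livers. Those at 106 and 111 CPM lay within the MD + Veh range. Cideb had a log2 fold change of −0.21 ± 0.07 (adjusted p = 0.126) and Plin2 one of −0.27 ± 0.15 (adjusted p = 0.422). Abhd5, which was lower with PE on the control diet, had a log2 fold change of 0.04 with a 95% interval of −0.21 to 0.28 on the MASH diet. The median over the 10 genes was −0.08, against −0.01 over all genes.

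Whether PE acted differently on the 2 diets was tested as an interaction in the same edgeR fit, and none of the 10 genes passed (0.00735% of all genes did). At an unadjusted p below 0.05, 2 of the 10 genes, Abhd5 and Plin2, and 8.77% of all genes passed. For Abhd5 the log2 fold change with PE was −0.66 on the control diet (called) and 0.04 on the MASH diet (not called). The difference was 0.70 ± 0.17 (SE, log2, unadjusted p = 0.000696, adjusted p = 0.216), with a 95% interval of 0.34 to 1.06. DESeq2 called this difference, at 0.71 with an adjusted p of 0.0334. The fit with the library numbers divided after 45 called it as well, at 0.87 with an adjusted p of 0.0448. Only MD + Veh had libraries on both sides of that division, replicates 1 to 3 before it and 4 and 5 after it. The division term thus rests on those livers alone. Their skeletal muscle genes also differed, at 2720, 172 and 114 CPM before it and 13.2 and 1.85 CPM after it. For Plin2 the interaction was −0.48 ± 0.22 (unadjusted p = 0.0459, adjusted p = 0.558), and for G0s2 it was −0.78 ± 0.38 (unadjusted p = 0.0556, adjusted p = 0.586). Each of these 2 genes had a positive log2 fold change with PE on the control diet and a negative one on the MASH diet, and neither effect was called.

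The MASH diet alone changed 5 of the 10 genes in MD + Veh against CD + Veh, where 10.4% of all genes were called, 4.74% higher and 5.63% lower. The coat genes Plin2 and Plin5, the droplet dehydrogenase Hsd17b11 and the lipase inhibitor G0s2 rose, and the co-activator Abhd5 fell. The median log2 fold change was 0.32 over the 10 genes and −0.004 over all genes. Groups did not overlap for 3 of the 10 in the higher direction (Plin2, Hsd17b11 and G0s2) and for 1 in the lower (Abhd5), against 7.37% and 8.88% of all genes. This comparison and that of PE on the control diet share the CD + Veh livers.

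Plin2, the main perilipin of hepatocytes, was at 275, 269, 289.8 and 411 CPM in CD + Veh and at 438, 521, 459, 430.0 and 433 CPM in MD + Veh. The vehicle liver CD + Veh replicate 4 stood close to the MASH diet livers. The log2 fold change was 0.55 ± 0.16 (SE), or 1.47-fold higher (adjusted p = 0.0303). This call of Plin2 was lost without CD + Veh replicate 1, 2 or 3 (adjusted p = 0.0901, 0.0911 and 0.0800) and without MD + Veh replicate 2 or 3 (adjusted p = 0.0704 and 0.0531), with log2 fold changes from 0.49 to 0.73 over all 19 fits.

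Plin5 was at 25.4, 20.8, 25.4 and 32.1 CPM in CD + Veh and at 38.8, 42.9, 39.1, 39.9 and 27.0 CPM in MD + Veh. Replicate 5 of MD + Veh lay within the range of CD + Veh and the other 4 lay above it. The log2 fold change was 0.54 ± 0.15, or 1.45-fold higher (adjusted p = 0.0237). The Plin5 call was lost without CD + Veh replicate 1, 2 or 3 (adjusted p = 0.0576, 0.0837 and 0.0589) and without MD + Veh replicate 2 (adjusted p = 0.0595).

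G0s2 was at 77.5, 37.6, 86.7 and 80.6 CPM in CD + Veh and at 136, 112, 102, 166 and 206 CPM in MD + Veh. Its log2 fold change of 1.03 ± 0.28, a level 2.04-fold higher, was the largest among the 10 genes for this comparison (adjusted p = 0.0191). Without CD + Veh replicate 2, the liver with the lowest level, the G0s2 log2 fold change was 0.82 and not called (adjusted p = 0.0632). G0s2 lies within the gene Lamb3 on the opposite strand, and 6615 bases of the 2 genes overlap.

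Hsd17b11 was at 97.3, 122, 117 and 131 CPM in CD + Veh and at 164, 186, 214, 195 and 189 CPM in MD + Veh. Every MASH diet liver was above every control liver, with a log2 fold change of 0.70 ± 0.12, or 1.62-fold higher (adjusted p = 0.000726). The call held without any 1 library. Its neighbour Hsd17b13, which lies 12346 bases away on chromosome 5 in GRCm39, was at 416 to 578 CPM in CD + Veh and 377 to 493 CPM in MD + Veh and was not called (adjusted p = 0.612).

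Abhd5 was at 17.3, 17.3, 18.6, 24.2 and 23.1 CPM in MD + Veh, below all 4 CD + Veh livers. The log2 fold change was −0.64 ± 0.12, or 1.56-fold lower (adjusted p = 0.00155), and kept its call without any 1 library. Pnpla2, the lipase that Abhd5 activates, had a log2 fold change of −0.26 ± 0.15 (adjusted p = 0.255), with levels of 51.4 to 78.7 CPM in CD + Veh and 45.4 to 65.3 CPM in MD + Veh.

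Clock scores moved with this diet comparison as well, from −2.37 to 0.28 in MD + Veh against −4.88 to −3.66 in CD + Veh. The 2 ranges did not overlap, so a fit with the score can hardly separate it from the diet. With the score as a covariate, 1 of the 10 genes, Hsd17b11, was called. The share of all genes called in that fit is not given. The log2 fold changes in that fit were 0.46 for Plin2 (adjusted p = 0.387), 0.56 for Plin5 (adjusted p = 0.235), 1.36 for G0s2 (adjusted p = 0.0754) and −0.69 for Abhd5 (adjusted p = 0.0520). Without the score they were 0.55, 0.54, 1.03 and −0.64. Macrophage markers summed to 192 to 274 CPM in MD + Veh and 86.2 to 152 CPM in CD + Veh, and stellate cell markers to 184 to 348 CPM and 136 to 199 CPM. Of 7 macrophage markers 1 was called (Gpnmb, higher) and of 5 stellate cell markers none. The hepatocyte markers summed to 45760 to 60311 CPM in MD + Veh and 64776 to 82231 CPM in CD + Veh, without overlap. Alb made up most of this sum, at group means of 39287 CPM in MD + Veh and 54984 CPM in CD + Veh. The means of Ttr, Apoa1 and Hnf4a were also lower in MD + Veh, and that of Cyp2e1 was higher, at 5489 against 3816 CPM. Of the 5 hepatocyte markers, 2 were called lower and 1 higher, and for the diet under PE 3 were called lower and none higher. Their part in these results was not tested.

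**Figure D3:**
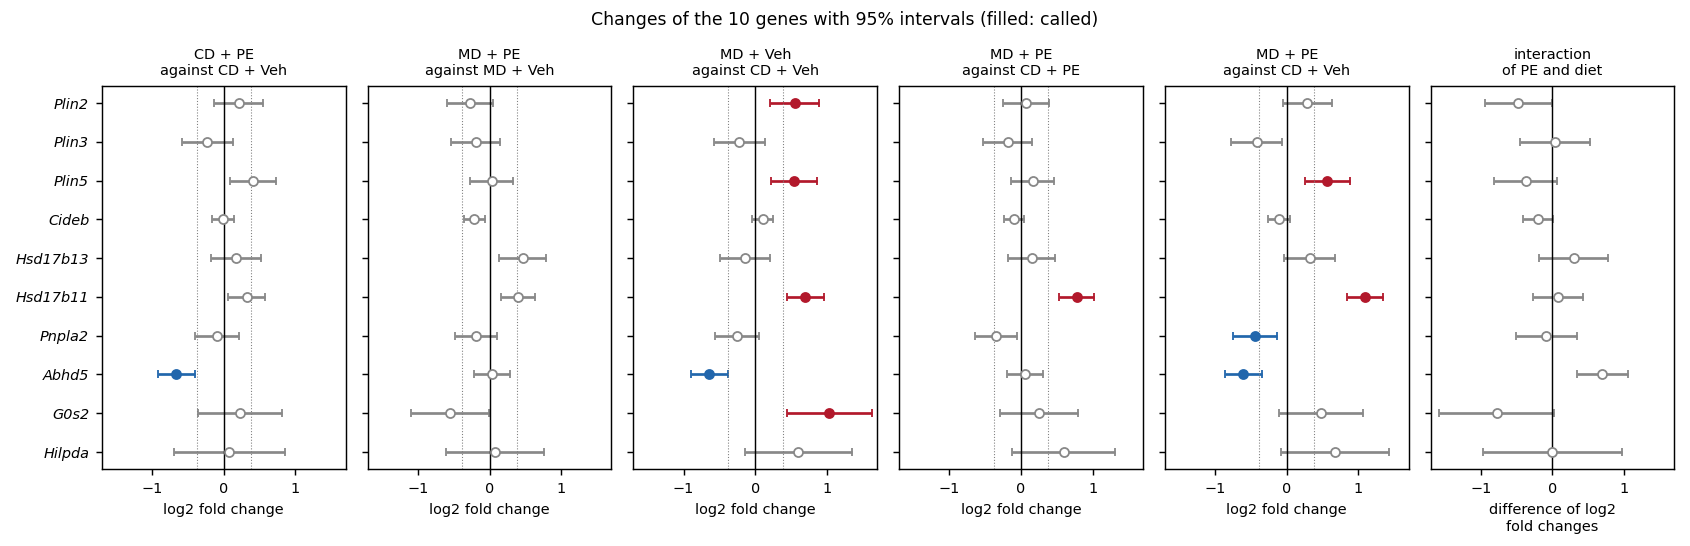
Log2 fold changes of the 10 genes with 95% intervals in the 5 comparisons between groups, and the interaction as a difference of log2 fold changes. Filled symbols were called (red higher, blue lower), dotted lines mark 0.38 in either direction, and Abhd5 is blue in 3 panels, at −0.66, −0.64 and −0.61.

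Under PE, the diet comparison called 1 of the 10 genes in MD + PE against CD + PE, where 4.61% of all genes were called, 1.69% higher and 2.92% lower. Hsd17b11 rose from 155, 115, 174, 131 and 153 CPM in CD + PE to 223, 219, 286, 231 and 285 CPM in MD + PE. All 5 MD + PE livers were above all 5 CD + PE livers, as for 2.21% of all genes (3.96% were lower without overlap), and the log2 fold change was 0.77 ± 0.11, or 1.71-fold higher (adjusted p = 0.000261). Plin2 and Plin5, which rose with the diet under vehicle, had log2 fold changes of 0.07 (adjusted p = 0.832) and 0.16 (adjusted p = 0.557) under PE, and G0s2 had 0.25 (adjusted p = 0.628). The diet effect on Abhd5 was 0.05 with a 95% interval of −0.20 to 0.30. That these diet effects differ between vehicle and PE is the same interaction as above, for which none of the 10 passed. Pnpla2 had a log2 fold change of −0.34 ± 0.14 (adjusted p = 0.149), and it was called at −0.48 (adjusted p = 0.0350) without the 3 libraries rich in muscle or macrophage genes.

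The combination of diet and PE was set against CD + Veh last. In MD + PE against CD + Veh, 4 of the 10 genes were called, where 14.6% of all genes were called, 6.02% higher and 8.55% lower. Hsd17b11 and Plin5 rose, and Abhd5 and Pnpla2 fell. Hsd17b11 was 2.13-fold higher, a log2 fold change of 1.09 ± 0.12 (adjusted p = 3.73e-06), and no MD + PE liver was below 219 CPM where no CD + Veh liver was above 131 CPM. Plin5 was at 37.8, 32.5, 33.8, 44.3 and 43.6 CPM in MD + PE, all above CD + Veh, with a log2 fold change of 0.57 ± 0.15 (adjusted p = 0.0122). Without CD + Veh replicate 2, the call of Plin5 was lost at 0.48 (adjusted p = 0.0505). Groups did not overlap for 2 of the 10 genes in the higher direction and 1 in the lower, against 7.58% and 11.3% of all genes.

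Abhd5 was at 21.9, 21.6, 17.3, 20.4 and 21.6 CPM in MD + PE and had a log2 fold change of −0.61 ± 0.12 against CD + Veh (adjusted p = 0.00162). The mean levels of Abhd5 in the 3 groups that received PE, the MASH diet or both were 19.8 ± 2.81, 20.1 ± 3.32 and 20.6 ± 1.92 CPM (SD, n = 5 each) for PE alone, the diet alone and both, against 31.3 ± 4.47 CPM in CD + Veh (SD, n = 4). The 3 comparisons in which Abhd5 fell share these 4 CD + Veh livers. Pnpla2 was at 51.4, 53, 64.1 and 78.7 CPM in CD + Veh and at 37.5, 45.6, 47.2, 44.2 and 52.98 CPM in MD + PE. The log2 fold change of Pnpla2 was −0.44 ± 0.15 (adjusted p = 0.0384). The groups overlapped through MD + PE replicate 5, and the call was lost without CD + Veh replicate 3 or 4 (adjusted p = 0.0844 and 0.211) and without MD + PE replicate 1, 2, 3 or 4 (adjusted p = 0.0886, 0.0637, 0.0537 and 0.0810). Plin3, a perilipin found in many tissues, had a log2 fold change of −0.41 ± 0.17 (adjusted p = 0.0922), and without MD + PE replicate 4 it was called at −0.56 (adjusted p = 0.0152). With the clock score as a covariate, or with the library numbers divided after 45 as a covariate, only Abhd5 and Hsd17b11 of the 4 were called.

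Ratios of counts within a library set opposing genes side by side without a normalization. Abhd5 to G0s2, the co-activator against the inhibitor of the same lipase, was 0.313 to 0.766 in CD + Veh livers, 0.119 to 0.393 in CD + PE, 0.112 to 0.183 in MD + Veh and 0.188 to 0.258 in MD + PE. The ratios of both MASH diet groups lay below all 4 of CD + Veh, while those of CD + PE overlapped. G0s2 to Pnpla2, the inhibitor against the lipase, was 0.709 to 1.51 in CD + Veh, 0.954 to 2.18 in CD + PE, 2.03 to 4.54 in MD + Veh and 1.95 to 2.41 in MD + PE. Hsd17b11 to Hsd17b13 was 0.211 to 0.293 in CD + Veh and 0.391 to 0.471 in MD + Veh. In MD + PE the ratio of these neighbours was 0.265 in 1 liver and up to 0.501 in the others. These ratios follow from the levels above and were not tested.

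**Figure D4:**
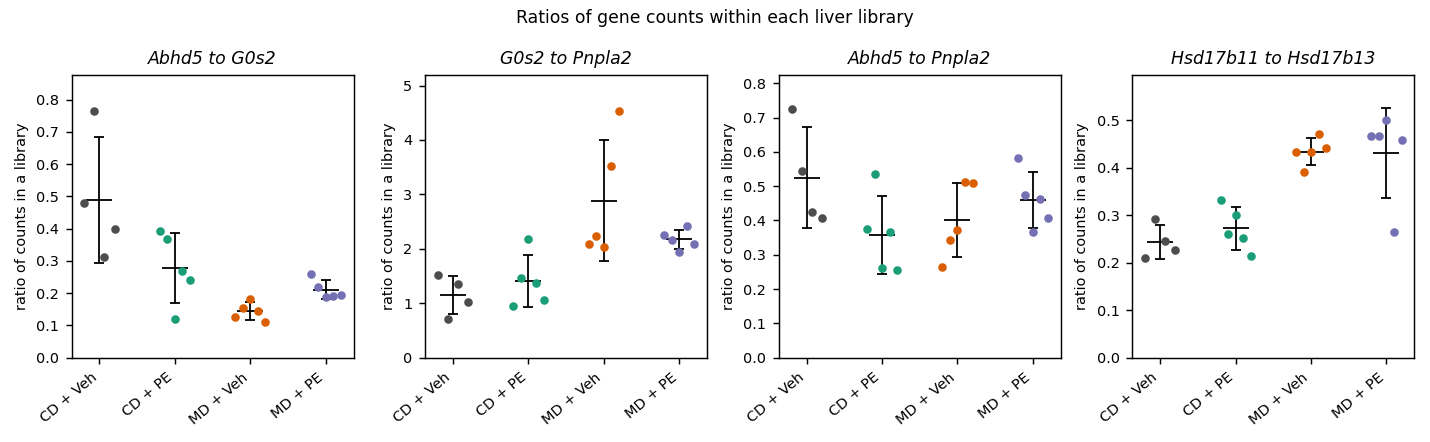
Ratio of the counts of 2 genes within each library for 4 pairs (linear axes from 0), with points for libraries and black lines for the mean ± SD of CD + Veh (n = 4) and the other groups (n = 5). Abhd5 to G0s2 is 0.313 or more in CD + Veh and 0.258 or less in both MASH diet groups.

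Over the 19 libraries, Pearson's r of log2 CPM between members was highest for Plin2 and Plin5 (r = 0.663) and for Plin2 and G0s2 (r = 0.657), and lowest for Plin5 and Abhd5 (r = −0.625). With each group centred on its own mean, these r were 0.557, 0.382 and −0.202. Within groups, Cideb and Hsd17b11 had the highest r at 0.692, although over all 19 libraries it was 0.002. CD + Veh replicate 4 was above the mean of its group for 10 of the 10 genes and MD + PE replicate 5 for 9 of the 10, whereas MD + PE replicate 1 was above it for 2 of the 10. Libraries share depth and normalization, and these values are descriptions.

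Of all genes tested, those whose log2 CPM was most like that of a member over the 19 libraries were found for each member. Hsd17b11 was most like Cyp3a11, a drug-metabolising cytochrome of a family of near-identical copies (r = 0.970), then Chpt1 (r = 0.952), which encodes a phosphatidylcholine-forming enzyme, and Vwa8 (r = 0.952). With groups centred, these r were 0.852, 0.812 and 0.892. Abhd5 was most like Arhgap32 (r = 0.871), the acyl-CoA synthetase gene Acsl4 (r = 0.844) and Derl2 (r = 0.818), and Plin2 was most like Mmp24os1 (r = 0.840), the lipid peroxide-reducing Gpx4 (r = 0.834) and the chemokine gene Ccl2 (r = 0.820). Plin5 was most like Nnt (r = 0.835), the ketone body enzyme gene Bdh1 (r = 0.834) and the monoglyceride lipase gene Mgll (r = 0.829). Pnpla2 was most like the autophagy gene Map1lc3b (r = 0.865), Psmd9 (r = 0.847) and Pcbp2 (r = 0.841), and Hilpda, the low member, was most like the apolipoprotein genes Apoa4 (r = 0.830) and Apoc2 (r = 0.776) and then Knop1 (r = 0.758). Plin3 was most like Rnf114 (r = 0.830), Aprt (r = 0.802) and Lsm4 (r = 0.799), and Cideb was most like Gchfr (r = 0.882), Pxmp2 (r = 0.860) and Bckdha (r = 0.852), which encodes a subunit of the branched-chain keto acid dehydrogenase. Hsd17b13 was most like Atp6ap2 (r = 0.870), Paip1 (r = 0.834) and Rnf128 (r = 0.822), and G0s2 was most like Tmem184c (r = 0.808), Ctcflos (r = 0.746) and Bsdc1 (r = 0.735).

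Some other genes of the lipid droplet had larger log2 fold changes with the diet than any of the 10. Of 18 such genes 17 were tested, and MD + Veh against CD + Veh called 4 higher (Cidea, Cidec, Plin4 and Fitm1) and 2 lower (Nsdhl and Dgat2). The call of Dgat2 was lost without several single libraries, with an adjusted p of up to 0.0741 (without CD + Veh replicate 1). Cidec, which fuses droplets, was at 0.604 to 2.80 CPM in CD + Veh and 6.72 to 27.3 CPM in MD + Veh, which gave a log2 fold change of 3.45 ± 0.53 (adjusted p = 0.000239). With the clock score as a covariate it was 2.78 and not called (adjusted p = 0.0925). Its relative Cidea had at most 1 count in any CD + Veh library and 2.16 to 9.41 CPM in MD + Veh (adjusted p = 5.54e-05), and no fold is given for it. Cideb, the CIDE gene of normal liver, stayed between 195 and 258 CPM in all 19 livers. Plin1, the perilipin of adipocytes, was at most 0.43 CPM except for 3.99 CPM in MD + Veh replicate 1, the library with the adipocyte and muscle genes, and was not tested. The adipocyte markers, which include Plin1 itself, summed to 30.4 CPM in MD + Veh replicate 1 and 8.89 to 16.7 CPM in the other libraries. Lipe, at group means of 10.3 to 14.3 CPM, made up most of the sum in those other libraries.

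Plin4, the neighbour of Plin5 at a distance of 1514 bases on chromosome 17 in GRCm39, was at 4.23 to 7.27 CPM in CD + Veh, 6.14 to 18.01 in CD + PE, 12.8 to 47.5 in MD + Veh and 41.3 to 78.3 in MD + PE. It rose with the diet under vehicle by 2.49 ± 0.35 (log2, adjusted p = 9.48e-05) and under PE by 2.43 ± 0.31 (adjusted p = 4.78e-05). Its log2 fold changes with PE were 1.04 ± 0.35 on the control diet (adjusted p = 0.105) and 0.99 ± 0.29 on the MASH diet (adjusted p = 0.0894), neither called, while DESeq2 called both (adjusted p = 0.0233 and 0.0261). Nsdhl encodes a cholesterol synthesis enzyme that sits on droplets. Of the 17 other droplet genes tested, it was the only one that edgeR called with PE. The log2 fold change of Nsdhl was −0.87 ± 0.17 on the control diet (adjusted p = 0.00692) and −1.26 ± 0.19 on the MASH diet (adjusted p = 0.00158). The Nsdhl call on the control diet was lost with the clock score (adjusted p = 0.0670) and with the library number division (adjusted p = 0.213). It was also lower with the diet under vehicle, at −2.67 ± 0.18 (adjusted p = 3.52e-08).

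Of 11 other lipolysis genes, all tested, PE on the control diet called 3 lower and none higher in edgeR. PE on the MASH diet called none of the 11 in edgeR (4 had an unadjusted p below 0.05, and DESeq2 called Pnpla3 and Pnpla5). The 3 were Pnpla3, at −3.08 ± 0.52 (log2, adjusted p = 0.00286), Pnpla5, at −2.90 ± 0.60 (adjusted p = 0.0108), both relatives of Pnpla2, and the phospholipase gene Ddhd2, at −0.50 ± 0.13 (adjusted p = 0.0426). The Ddhd2 call was lost in 14 of 19 fits with 1 library left out, with an adjusted p of 0.175 without CD + Veh replicate 4, and without the 3 libraries rich in muscle or macrophage genes (−0.39, adjusted p = 0.140). With the library number division as a covariate all 3 calls were lost (adjusted p = 0.0797 for Pnpla3, 0.0951 for Pnpla5 and 0.141 for Ddhd2), and with the clock score those of Pnpla5 (0.0552) and Ddhd2 (0.375). DESeq2 gave no adjusted p for Pnpla5 in this comparison. It called Pnpla3, Ddhd2, Mgll and Ces1g. The group means of Mgll and Ces1g were 157 and 94.2 CPM in CD + Veh and higher in CD + PE, at 215 and 131 CPM. In edgeR, 5 of the 11 had an unadjusted p below 0.05 for PE on the control diet. Pnpla3 was at 8.32 to 25.9 CPM in CD + Veh, 0.706 to 5.00 in CD + PE, 0.886 to 3.94 in MD + Veh and 0.0869 to 0.926 in MD + PE. The MASH diet under vehicle called 3 higher and 3 lower. Mgll, which completes the breakdown of triglyceride, rose by 0.80 ± 0.13 (adjusted p = 0.000395), and Pnpla3, Pnpla5 and Ddhd2 fell. Ces1g and Abhd6 were the other 2 called higher, and both calls were lost without some single libraries (adjusted p of up to 0.0824 for Ces1g without CD + Veh replicate 3, and 0.135 for Abhd6 without CD + Veh replicate 1). The median log2 fold change of the 11 was −0.05 for the diet and 0.14 for PE on the control diet, and the median over all genes was −0.004 and 0.01.

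**Figure D5:**
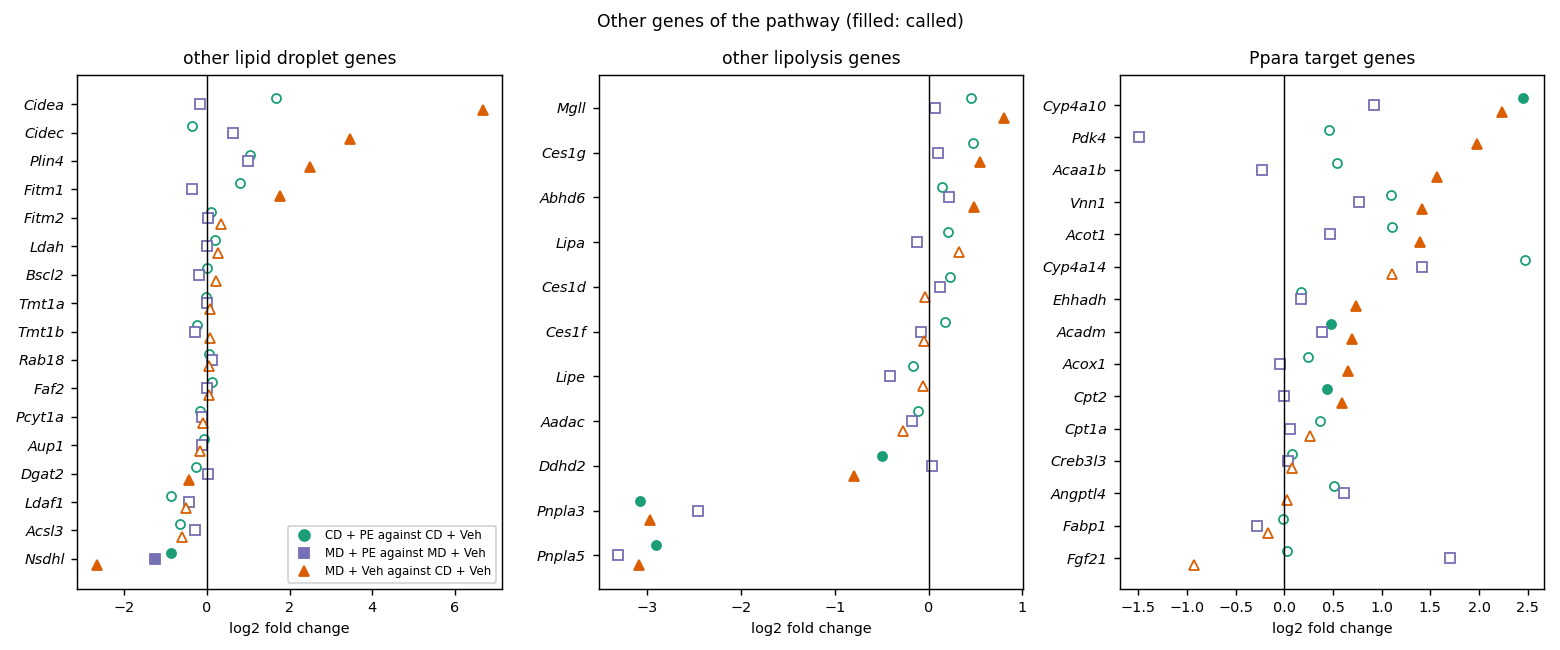
Log2 fold changes of 17 other lipid droplet genes, 11 other lipolysis genes and 15 Ppara target genes for PE on each diet (circles and squares) and for the diet under vehicle (triangles), with filled symbols for called genes. Cidea, Cidec, Plin4 and Fitm1 stand to the right for the diet, and Nsdhl is filled to the left for all 3 comparisons.

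Since Plin2 and Plin5 are known PPARα targets, a list of 15 other Ppara target genes was counted beside them. With the MASH diet under vehicle, 9 of 15 rose and none fell, with a median log2 fold change of 0.69. Those that changed most were Cyp4a10, a fatty acid hydroxylase of a family of close copies, at 2.24 ± 0.56 (adjusted p = 0.0108), Pdk4 at 1.98 ± 0.61 (adjusted p = 0.0366) and Acaa1b at 1.56 ± 0.17 (adjusted p = 6.44e-06). Pdk4 was at 65.2 CPM in MD + Veh replicate 1, the library with 2720 CPM of muscle genes, and at 3.86 to 18.03 CPM in the other 4. Leaving MD + Veh replicate 1 out gave 0.81 (log2, adjusted p = 0.179), and the call was also lost without MD + Veh replicate 2 or any 1 of the 4 CD + Veh libraries. With PE on the control diet, edgeR called 3 of 15 higher and none lower, with a median of 0.46, where 1.22% of all genes were called higher and 1.7% lower. These were Cyp4a10 at 2.45 ± 0.56 (adjusted p = 0.0191), Acadm at 0.48 ± 0.13 (adjusted p = 0.0422) and Cpt2 at 0.44 ± 0.10 (adjusted p = 0.0181). Each of these calls was lost when certain single libraries were left out, with an adjusted p of up to 0.0584 for Cyp4a10 (without CD + Veh replicate 3), 0.124 for Acadm (without CD + Veh replicate 2) and 0.0608 for Cpt2 (without CD + Veh replicate 1). At an unadjusted p below 0.05 in edgeR, 8 of the 15 passed with PE on the control diet. DESeq2 called 6 there, Acaa1b, Acot1 and Cyp4a14 besides these 3. With PE on the MASH diet edgeR called none of the 15, with a median of 0.17. At an unadjusted p below 0.05, 5 passed, and DESeq2 called 1, Acadm. With PE on the control diet, Plin5 had a log2 fold change of 0.41, close to the median of that list, and Plin2 had 0.21. With PE on the MASH diet, Plin5 had 0.03 and Plin2 had −0.27, against the list median of 0.17. None of these values of Plin2 and Plin5 was called.

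Hilpda is induced by hypoxia and by fatty acids in cultured cells. Its levels were 0.603 to 1.48 CPM on the control diet with PE, 0.716 to 1.21 CPM with vehicle, 1.05 to 2.01 CPM in MD + Veh and 0.695 to 2.54 CPM in MD + PE, and it was called in none of the comparisons. Of 10 hypoxia-inducible genes 8 were tested, and the diet under vehicle called 1 higher, Slc2a1 at 0.48 ± 0.16 (adjusted p = 0.0468, or 0.132 without CD + Veh replicate 4), and 2 lower, Pdk1 at −0.77 ± 0.13 (adjusted p = 0.000650) and Vegfa at −0.73 ± 0.09 (adjusted p = 2.95e-05). In edgeR none of the 8 was called with PE, where 3 on the control diet and 2 on the MASH diet had an unadjusted p below 0.05 and DESeq2 called Pdk1 on each.

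In MD + PE against CD + PE, 3 other droplet genes were called higher and 1 lower, 2 lipolysis genes higher and 2 lower, 3 Ppara target genes higher and 1 lower, and 2 hypoxia-inducible genes lower. Cidec rose by 4.43 ± 0.52 (log2, adjusted p = 1.83e-05), and Nsdhl had a log2 fold change of −3.06 ± 0.19 (adjusted p = 1.22e-08). Cidea had 0 to 5 counts in CD + PE and 13 to 74 in MD + PE (adjusted p = 0.000261). Of the lipolysis genes, Pnpla3 was at −2.34 ± 0.65 (adjusted p = 0.0360) and Abhd6 at 0.56 ± 0.15 (adjusted p = 0.0258), and Pnpla5 had 2 to 25 counts in CD + PE and 0 to 2 in MD + PE (adjusted p = 0.0262). All 4 lipolysis calls, that of Mgll included, were lost without the 3 libraries rich in muscle or macrophage genes (adjusted p = 0.224 for Pnpla3, 0.0846 for Abhd6, 0.0730 for Pnpla5 and 0.187 for Mgll). They were also lost without certain single libraries, with an adjusted p of up to 0.111 for Pnpla3 and 0.0676 for Pnpla5 (without CD + PE replicate 2), 0.0683 for Abhd6 (without MD + PE replicate 3) and 0.105 for Mgll (without CD + PE replicate 4). The Ppara target genes that rose were Acaa1b, at 0.79 ± 0.16 (adjusted p = 0.00363), Ehhadh, at 0.73 ± 0.15 (adjusted p = 0.00460), and Acadm, at 0.60 ± 0.12 (adjusted p = 0.00376), and these 3 kept their calls without any 1 library. The 1 called lower was Fabp1, whose call was lost in 6 of 19 fits with 1 library left out (adjusted p of up to 0.0887, without CD + PE replicate 3) and with the clock score (adjusted p = 0.0716).

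In MD + PE against CD + Veh, 4 other droplet genes were called higher and 3 lower, 3 lipolysis genes higher and 5 lower, 9 Ppara target genes higher and 1 lower, and 1 hypoxia-inducible gene higher and 2 lower. Cidec was at 4.07 ± 0.53 (log2, adjusted p = 2.23e-05) and Nsdhl at −3.93 ± 0.19 (adjusted p = 3.04e-10), and Cidea, with at most 1 count in a CD + Veh library, was also called (adjusted p = 3.44e-05). Pnpla3 had 124 to 362 counts per library in CD + Veh and 1 to 11 in MD + PE, which gave −5.42 ± 0.62 on the log2 scale (adjusted p = 4.60e-06). Pnpla5 had 58 to 133 counts in CD + Veh and 0 to 2 in MD + PE (adjusted p = 1.76e-05), and Mgll was at 0.87 ± 0.13 (adjusted p = 9.52e-05). The Ppara target genes with the largest log2 fold changes were Cyp4a10 at 3.16 ± 0.58 (adjusted p = 0.000664), Cyp4a14 at 2.52 ± 0.86 (adjusted p = 0.0449) and Vnn1 at 2.18 ± 0.38 (adjusted p = 0.000406). The Cyp4a14 call was lost in 9 of 19 fits with 1 library left out, with an adjusted p of up to 0.115 without CD + Veh replicate 3, and with the clock score (0.193) or the library number division (0.189). Of the 28 calls in these 4 lists, 8 were lost with the clock score and 12 with the library number division.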

How the data were processed

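Poly(A) RNA of 19 livers was sequenced. Per the labels and methods, the authors trimmed reads with fastp (0.23.4), quantified them against the GENCODE transcriptome of GRCm39 with Salmon (1.10.3) correcting for sequence bias, and added up the transcripts of each gene. The methods describe stranded libraries, with the library type detected by Salmon. The deposited table gives the authors' estimated counts, rounded to whole numbers, with neither filter nor normalization. Reads shared by similar genes or by genes that overlap on the same strand were thus divided by the estimator.

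Tests were run with edgeR 4.0.16 (R 4.3.3) on all 19 libraries with 1 coefficient per group, TMM normalization and filterByExpr, followed by the quasi-likelihood test and Benjamini-Hochberg adjustment over 13597 genes. Standard errors are the log2 fold change divided by the root of F. CPM use TMM library sizes. DESeq2 1.42.0 was run as an alternative. On simulated counts for CD + PE against CD + Veh (13444 genes), 88% of 200 genes changed by 1.5 on the log2 scale were recovered, with 7 false calls. No member changed that much in the main fit, where the largest log2 fold change was 1.09. The recovered share thus does not tell how often changes of the members' size would be called.

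Groups came from the treatment labels. All libraries are labelled as 1 batch. Replicate numbers were not used as pairs: over 27 pairs of libraries with the same number, the median correlation of residuals was 0.0293, and 6 exceeded 0.1. Over 36 pairs of libraries of 1 group, at most 1.85% of genes had identical counts. Per the methods, the mice of a group shared housing, so cage and treatment cannot be told apart, and p-values measure the spread between these mice.

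The members and lists were chosen with earlier results of these data known. Beyond the members, the text names up to 3 called genes of largest absolute change per comparison in the droplet, lipolysis and Ppara target lists, plus Plin1, Plin4, Cidea and Cidec, and for each member the 3 genes most like it by Pearson's r. Other genes named to complete a count were chosen after their values were seen. 1 gene of the Ppara target list is not reported here and is left out of its counts. Settings tried are given in the closing section, and 1 of them, leaving out 3 libraries with high muscle or macrophage genes, was chosen after seeing the data. GRCm39 positions are from GENCODE and promoter windows from RefSeq.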

Additional observations from a re-analysis of the deposited data

Results flagged for a closer look

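In 6 of 40 sets of values (10 genes in 4 groups), 1 liver lay farther from the rest of its group than Dixon's 95% limit allows, where chance alone gives about 1 in 20. Of the 6, 2 concerned Plin2, at 411 CPM in CD + Veh replicate 4 and at 516 CPM in MD + PE replicate 4, both the highest of their group. G0s2 was high in CD + PE replicate 3, at 149.6 CPM, where the next liver was at 75.8 CPM. Pnpla2 was high in MD + Veh replicate 1, at 65.3 CPM, the library with 2720 CPM of skeletal muscle genes. Plin5 was low in MD + Veh replicate 5, at 27.0 CPM, and Cideb was low in CD + Veh replicate 1, at 198 CPM, where the other 3 livers were all at 233 CPM.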

How the results depend on the processing

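RLE normalization, no filter or a stricter filter on low counts, no minimum fold change and the fit of only the groups compared left the number of members called within 1.5 times in every comparison they could give. The replicate block, which treats equal replicate numbers as pairs, gave the same counts of members called, 1, 0, 5, 1, 4 and 0 in the order of the report, and changed no member's call. In the lists of other genes, it ended the calls of Acadm for PE on the control diet (adjusted p = 0.0536), of Pdk4 and Slc2a1 for the diet under vehicle (adjusted p = 0.0632 and 0.0718) and of Lipe for MD + PE against CD + Veh (adjusted p = 0.0554). In those lists the clock score ended 4 of 7 calls for PE on the control diet (Cyp4a10, Ddhd2, Nsdhl and Pnpla5), 12 of 24 for the diet under vehicle (Abhd6, Acot1, Ces1g, Cidec, Cyp4a10, Ddhd2, Dgat2, Ehhadh, Pdk1, Pdk4, Slc2a1 and Vnn1), 1 of 14 for the diet under PE and 8 of 28 for MD + PE against CD + Veh. The library number division, whose term rests on the MD + Veh livers alone, ended 7 of 7, 1 of 24 (Abhd6), 0 of 14 and 12 of 28. DESeq2 called 1 member for PE on the MASH diet (Hsd17b11) and 1 for the interaction (Abhd5). The clock score as a covariate left 1 of 5 for the diet under vehicle and 2 of 4 for MD + PE against CD + Veh, the library number division left 2 of those 4, ended the G0s2 call for the diet under vehicle (0.72, adjusted p = 0.102) and called 1 for the interaction, and leaving out the 3 libraries rich in muscle or macrophage genes gave 2 for the diet under PE. With each library left out in turn, 2 to 5 members were called for the diet under vehicle, fewest without CD + Veh replicate 2. Clock scores of CD + Veh overlapped with those of no other group, and the shares of all genes called with the score are not given. The cause of these changes was not tested.

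Direction was followed over the settings in every comparison and the interaction for Abhd5, G0s2, Hsd17b11, Plin2, Plin5 and Pnpla2. For Cideb and Hsd17b13 it was followed only for PE on the MASH diet. For Plin3 it was followed only for MD + PE against CD + Veh, and for Hilpda not at all. Among the values followed, direction turned only for those that were not called. With the library number division, G0s2 was −0.45 for PE on the control diet and −0.19 for MD + PE against CD + Veh, Pnpla2 was 0.16 for PE on the control diet and Abhd5 was −0.20 for PE on the MASH diet. With the clock score, Pnpla2 was 0.11 for PE on the control diet and 0.037 for the diet under vehicle, and the Hsd17b11 interaction was −0.10. Without the 3 libraries, Pnpla2 was 0.063 for PE on the control diet, Abhd5 was −0.0055 for PE on the MASH diet and the Hsd17b11 interaction was −0.038. With 1 library left out, values spanned 0 for PE on the control diet in G0s2 (−0.10 to 0.38) and Pnpla2 (−0.17 to 0.054), for PE on the MASH diet in Abhd5 (−0.015 to 0.11) and Plin5 (−0.062 to 0.086), for the diet under PE in Plin2 (−0.053 to 0.22) and for the interaction in Pnpla2 (−0.22 to 0.0087). Hilpda rested on 6 to 37 counts per library, which limits its precision.

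Over all genes tested, the calls for PE on the MASH diet were 147 in edgeR, 303 in DESeq2 and 33 with the library number division, and those for the interaction 1, 86 and 54.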
